A study of Mus musculus with 12 samples.

Results

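Glycolysis splits glucose into pyruvate, and 36 genes that take part in it or respond to low oxygen were followed across 4 groups of cultured mouse myoblasts. The genes were chosen by symbol, 24 for glucose uptake, the glycolytic enzymes and the enzymes that regulate them, and 12 for oxygen sensing and the hypoxia response. The deposited table of 23446 genes listed 35 of the 36, all 35 had at least 10 reads over the 12 libraries, and all 35 were among the 12230 genes with enough reads to be tested. The absent symbol was Pkm2. The table lists instead Pkm, the current symbol of pyruvate kinase of muscle, which is described below outside the 35 because it was chosen with its values known.

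RNA was sequenced from C2C12, an established mouse myoblast line that divides in growth medium (GM) and leaves the cell cycle and fuses in differentiation medium (DM). Cells in either medium had been given acetoacetate (AA), a ketone body that muscle burns, or its vehicle PBS for 12 h. This gave 4 groups of 3 libraries, GM-PBS and GM-AA for dividing cells and DM-PBS and DM-AA for differentiating cells, and the study asked how AA acts on dividing and on differentiating myoblasts. The labels give no dose or salt of AA, no oxygen tension or glucose concentration, and no time in DM before the 12 h. Nor do they state whether the 3 libraries per group are separate cultures. The p-values therefore measure the spread among these samples alone, and that spread may be technical.

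In glycolysis, transporters admit glucose, hexokinase and phosphofructokinase commit it, and the lower enzymes pass it to pyruvate, which lactate dehydrogenase reduces or mitochondria oxidise. HIF-1, a pair of transcription factors whose alpha subunit is destroyed when prolyl hydroxylases can use oxygen, raises many of these genes when oxygen is scarce. Dividing myoblasts rely on glycolysis, and muscle fibres express their own forms of several of its enzymes.

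Libraries held 7959519 to 9893564 reads assigned to genes. Myoblast genes (Myod1, Myf5, Des and Cdh15) summed to 1844 to 2472 CPM (reads of a gene scaled to a common library size) in every library. The sum, mostly Des, was higher with AA in both media (1844 to 1908 against 2103 to 2181 CPM in GM, 2025 to 2053 against 2264 to 2472 CPM in DM), but Myod1 fell with AA in GM (-0.34 ± 0.049 on the log2 scale, adjusted p = 3.52e-06) and was not called in DM, while the other 3 genes rose in both. Summed markers of other cell types stayed between 0.236 and 9.12 CPM for the adipocyte, osteoblast and chondrocyte, immune and endothelial lists. Lep, Plin1, Ibsp, Tyrobp and Tie1 had 0 reads in every library. Other genes of those lists had some, such as Cd68 (281 reads in all), Sp7 (72) and Fabp4 (44). The epithelial list, almost all Krt19, summed to 84.6 to 87.6 CPM in the GM-PBS libraries, 69.0 to 75.8 in GM-AA and 27.4 to 31.0 in DM, and the osteoblast and chondrocyte list, mostly Dmp1, to 7.66 to 9.12 CPM in DM-PBS, 3.59 to 4.05 in DM-AA and at most 2.21 in GM. Their part in the results was not tested.

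AA lowered a group of these genes in each medium, and the change of medium lowered most of them by far more. With AA in GM, 12 of the 35 fell and 0 rose past a 5% false discovery rate (FDR), where 11.0% of all tested genes were called lower and 9.76% higher. DESeq2 also called 0 of them higher, 2 members (Eno2 and P4ha1) were higher at an unadjusted p under 0.05 in edgeR's quasi-likelihood test, and P4ha1 was called without GM-PBS replicate 2 (adjusted p = 0.0318). With AA in DM, 12 fell and 1, Egln3, rose, where 13.8% of tested genes were called lower and 12.6% higher. Between DM and GM in PBS, 30 fell and 2, Ldhb and Pfkfb4, rose, where 27.4% of tested genes were called lower and 27.0% higher. Fold changes are from edgeR's quasi-likelihood fit to all 12 libraries, and an adjusted p is its Benjamini-Hochberg value over the 12230 tested genes.

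The members' median log2 fold change was -0.11 with AA in GM, -0.11 with AA in DM and -0.85 with DM in PBS, and the median over all tested genes was -0.00, 0.00 and 0.01. Summed over the 23 glycolytic members in the table, the level was 10006 ± 157 CPM (SD, n = 3) in GM-PBS, 9270 ± 274 in GM-AA, 5518 ± 128 in DM-PBS and 5295 ± 105 in DM-AA. The 12 hypoxia members summed to 3287 ± 174, 2952 ± 89.8, 1807 ± 60.1 and 1628 ± 33.8 CPM in the same order. In RNA from whole cultures, fewer cells of a kind and less RNA per cell cannot be told apart. The members were well covered, at a median of 150 CPM against 34.4 CPM over tested genes, and their log2 fold changes had a median SE of 0.053 in GM and 0.059 in DM against 0.081 and 0.082 over tested genes.

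The 12 members lower with AA in GM and the 12 lower in DM shared 9 genes, which is 75% of each list, and these 2 comparisons have no library in common. The 9 were Slc2a1, Pfkl, Aldoc, Pdk1, Pgm2, Egln1, Vegfa, Ndrg1 and Ddit4. Over all tested genes, 788 were lower in both, 58.8% of the GM list and 46.6% of the DM list. Effects were small in both media: only Aldoc in GM, and Aldoc and Ndrg1 in DM, changed by more than 0.5 on the log2 scale.

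**Figure D1:**
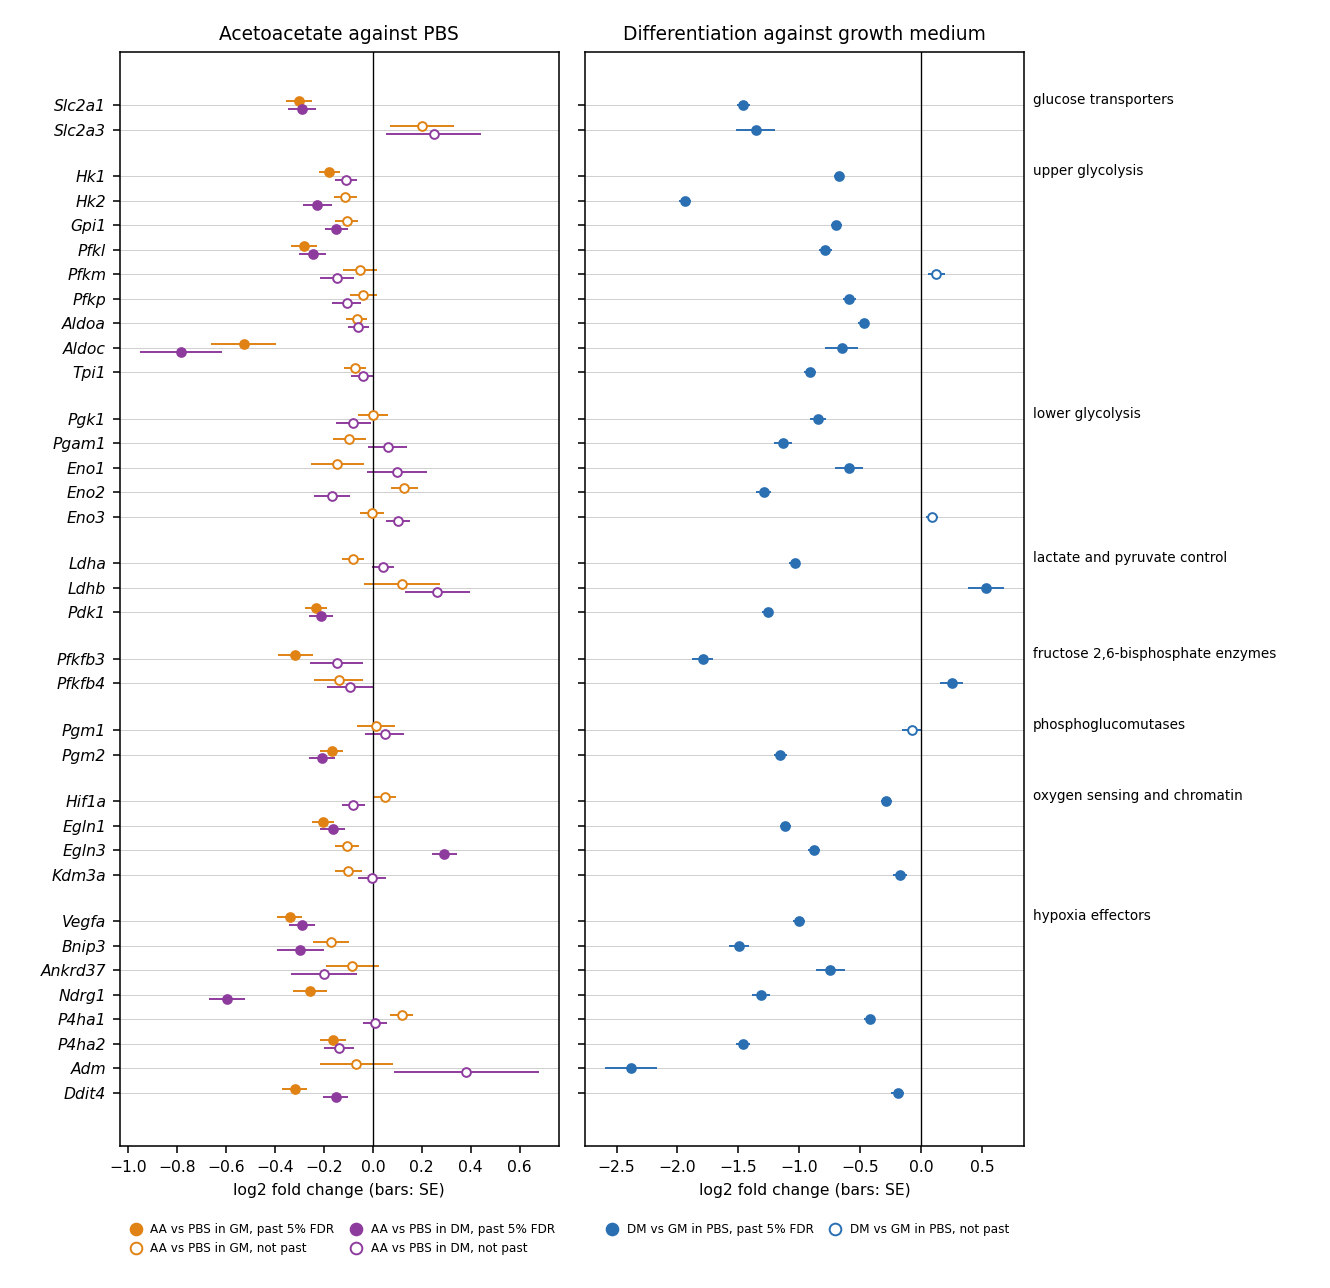
Log2 fold change of the 35 genes, grouped by role, with AA against PBS in GM and in DM (left) and with DM against GM in PBS (right). Bars are SE, and filled points are past 5% FDR. On the left the filled points lie between -0.79 and -0.15 apart from Egln3 in DM at 0.29, and on the right 30 genes are filled below 0.

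The members' promoters were read for the core letters that HIF-1 recognises, ACGTG and GCGTG, on either strand in the 250 bases before the start. Members were picked as genes of glycolysis and the hypoxia response, many of which HIF-1 raises. A larger share with a core could thus come from that choice, whatever these libraries show. CACGTG, the E-box bound by Myc and other factors, holds ACGTG on each strand and counts as 2. Promoters came from RefSeq (GRCm38.p6), whereas the reads had been aligned to mm9. Pgm1 and Pgm2 were left out because their symbols have been exchanged between genes, and 31 other members had an entry. For Eno3, Hif1a and Pgam1, the bases after the listed start were not found near the start of a GENCODE M21 transcript of the gene. These genes are kept in the counts. At least 1 core stood before some listed start of 28 of the 31 (90.3%), of 62.3% of 9150 tested genes and of 41.5% of all 27025 genes of that table. Members had more starts listed per gene (1.48 against 1.28 over tested genes), and with only the first listed start the shares were 80.6% and 57.9%. The median GC content of the promoters was 59.6% for members and 60.4% for tested genes. None was found for Gpi1, Tpi1 and Eno2. A match is a description of letters and says nothing on whether HIF-1 binds there.

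Cores on either strand are printed in capitals below, and each sequence ends at the base before the start. No fold change was tested against the cores. The promoters of 5 genes are given as examples, 5′ to 3′ on the gene's strand. They are Slc2a1, which fell in all 3 comparisons (chr4:119108495-119108744, plus strand, 2 cores), Hk2 and Bnip3, which had log2 fold changes of -1.94 and -1.49 in DM (chr6:82774455-82774704, minus strand, 2 cores, and chr7:138909507-138909756, minus strand, 5 cores), Egln3, the only member called higher with AA (chr12:54203875-54204124, minus strand, 1 core), and Ldhb, which rose in DM (chr6:142507958-142508207, minus strand, 1 core).
Slc2a1: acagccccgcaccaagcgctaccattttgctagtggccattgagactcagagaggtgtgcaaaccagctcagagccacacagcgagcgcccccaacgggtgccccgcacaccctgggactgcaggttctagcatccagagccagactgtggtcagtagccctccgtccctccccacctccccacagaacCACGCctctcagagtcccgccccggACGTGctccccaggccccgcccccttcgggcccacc
Hk2: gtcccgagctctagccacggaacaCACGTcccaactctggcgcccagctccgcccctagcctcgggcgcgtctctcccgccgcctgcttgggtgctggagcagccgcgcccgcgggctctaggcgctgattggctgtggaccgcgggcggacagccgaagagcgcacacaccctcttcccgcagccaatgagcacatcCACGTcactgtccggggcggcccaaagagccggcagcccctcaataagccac
Bnip3: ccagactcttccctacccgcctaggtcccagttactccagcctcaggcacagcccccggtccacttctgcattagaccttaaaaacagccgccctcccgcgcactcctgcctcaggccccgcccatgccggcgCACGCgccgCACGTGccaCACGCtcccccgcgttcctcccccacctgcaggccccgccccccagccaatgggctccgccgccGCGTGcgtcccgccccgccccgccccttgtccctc
Egln3: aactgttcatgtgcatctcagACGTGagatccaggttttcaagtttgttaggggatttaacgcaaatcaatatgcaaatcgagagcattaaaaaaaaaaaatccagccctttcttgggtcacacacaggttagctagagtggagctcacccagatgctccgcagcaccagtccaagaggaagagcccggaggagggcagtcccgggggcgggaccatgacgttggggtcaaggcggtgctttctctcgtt
Ldhb: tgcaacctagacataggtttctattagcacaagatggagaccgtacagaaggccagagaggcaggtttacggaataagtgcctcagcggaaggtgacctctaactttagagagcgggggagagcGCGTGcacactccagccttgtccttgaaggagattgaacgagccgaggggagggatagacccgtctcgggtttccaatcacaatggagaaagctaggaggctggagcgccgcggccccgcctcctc
In Bnip3 the letters CACGTG are 1 of the runs in capitals, and the single core of Egln3 starts 229 bases before the start site. Genes that fell and genes that rose both held a core.

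Of the glucose transporters, Slc2a1 (GLUT1), the main carrier of dividing cells, fell in each comparison. Its level was 761, 816 and 748 CPM in the GM-PBS libraries, 675, 621 and 590 in GM-AA, 275, 281 and 290 in DM-PBS and 253, 225 and 214 in DM-AA. No library of an AA group reached the lowest PBS library of its medium, and every DM library was below every GM library. It fell by 18.9% with AA in GM (log2 fold change -0.30 ± 0.053 SE, adjusted p = 7.06e-05) and fell by 18.2% with AA in DM (-0.29 ± 0.057, adjusted p = 0.000186), and the 2 effects differed by 0.01 ± 0.078. In DM with PBS it fell by 63.6%. Slc2a3 (GLUT3), a high-affinity carrier, was scarce at 1.80 ± 0.33 RPKM (the same per kilobase of gene, SD, n = 3) in GM-PBS against 191 ± 8.9 RPKM for Slc2a1. It was lower in DM (-1.36 ± 0.163, adjusted p = 1.2e-08), and with AA its log2 fold changes of 0.20 ± 0.129 and 0.25 ± 0.194 did not pass the test.

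**Figure D2:**
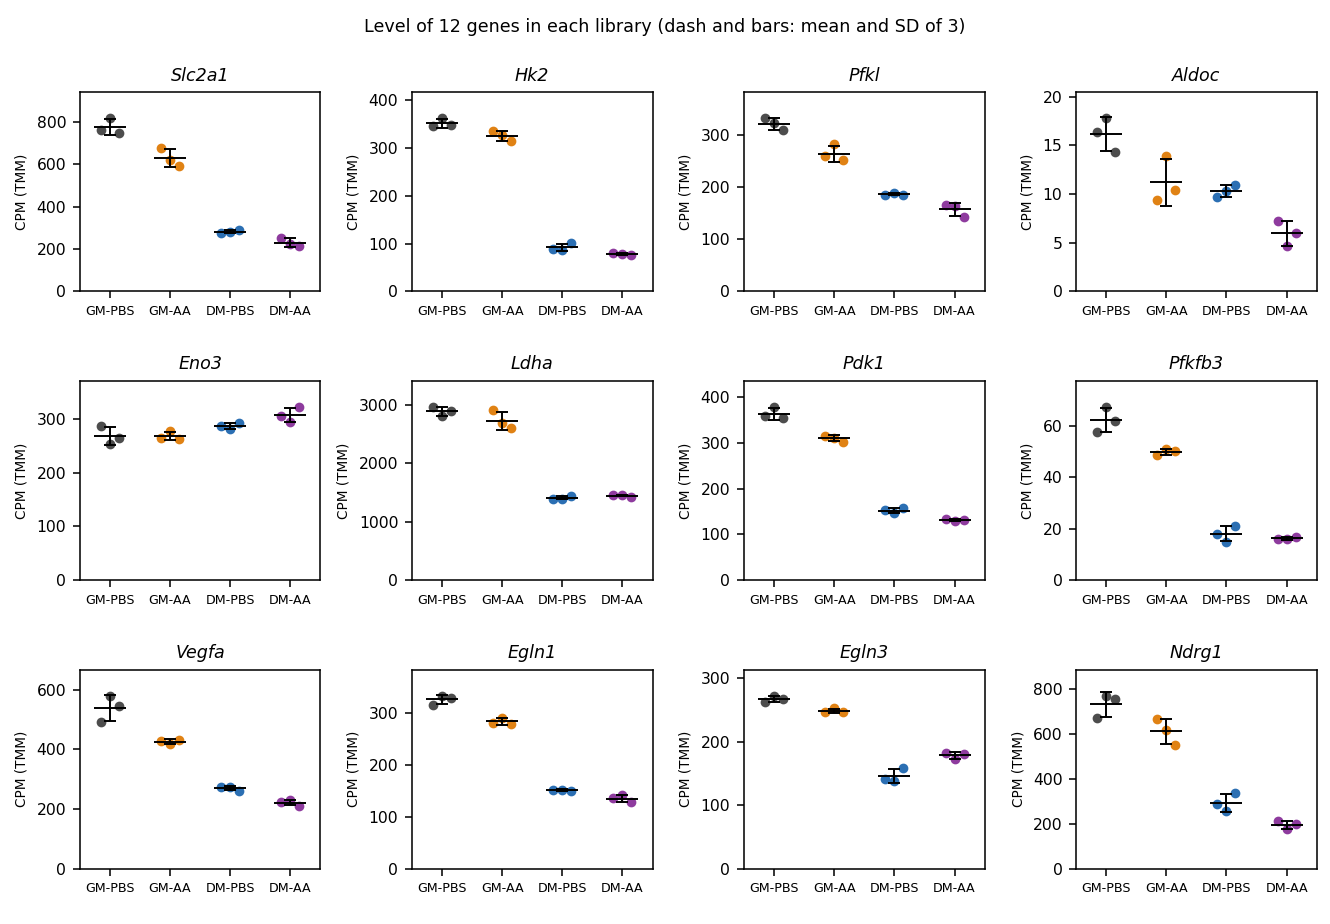
Level in CPM of 12 of the genes in each of the 12 libraries. Points are libraries, and dashes and bars are the mean and SD of 3. For Slc2a1, Pdk1, Vegfa, Egln1 and Ndrg1 the AA libraries lie below the PBS libraries of their medium, while for Egln3 (172 to 183 against 138 to 158 CPM) and Eno3 in DM they lie above them.

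Among the 9 genes of upper glycolysis, from hexokinase to triose phosphate isomerase, AA lowered 3 in GM (Hk1, Pfkl and Aldoc) and 4 in DM (Hk2, Gpi1, Pfkl and Aldoc), and DM lowered 8. Pfkl, the liver form of phosphofructokinase, measured 332, 323 and 310 CPM in the GM-PBS libraries and 259, 282 and 252 in GM-AA, and 185, 189 and 186 in DM-PBS and 166, 164 and 142 in DM-AA. The AA libraries were the lower ones in both media without overlap. The fall was -0.28 ± 0.052 in GM (adjusted p = 0.000135) and -0.25 ± 0.055 in DM (adjusted p = 0.00103). Aldoc, the brain form of aldolase, had the largest fold change with AA in both media and few reads, 1112 in all libraries together. Its levels were 16.4, 17.8 and 14.3 CPM in the GM-PBS libraries, 9.34, 13.9 and 10.4 in GM-AA, 9.67, 10.4 and 10.9 in DM-PBS and 7.24, 4.65 and 5.98 in DM-AA. Again no AA library overlapped its PBS group, with a fall of -0.53 ± 0.133 in GM (adjusted p = 0.00425) and -0.79 ± 0.168 in DM (adjusted p = 0.00057). Aldoa, the muscle form and the main aldolase here at 544 ± 17 RPKM in GM-PBS against 6.02 ± 0.65 for Aldoc, changed by -0.07 ± 0.044 and -0.06 ± 0.044 with AA, which did not pass.

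The hexokinases trap glucose as its phosphate, and both fell in DM. Hk2, the insulin-responsive form of muscle, measured 345, 362 and 347 CPM in the GM-PBS libraries and 87.7, 87.1 and 100.5 in DM-PBS, and fell by 73.9% (-1.94 ± 0.053, adjusted p = 6.53e-25). Hk1, the constitutive form, fell by 37.3% (-0.67 ± 0.044). By RPKM, Hk2 made up 33.2% ± 1.01 (SD, n = 3) of Hk1 and Hk2 together in GM-PBS, 34.2% ± 1.04 in GM-AA, 17.2% ± 0.97 in DM-PBS and between 15.7% and 16.5% in the DM-AA libraries. With AA, Hk1 was called in GM (-0.18 ± 0.043, adjusted p = 0.00303) and Hk2 in DM (80.3, 77.5 and 77.0 CPM, -0.23 ± 0.059, adjusted p = 0.00377), but the difference of the effects between media was 0.07 ± 0.062 for Hk1 and -0.12 ± 0.075 for Hk2, and neither passed. Without DM-PBS replicate 3, the highest of its group, Hk2 in DM was at -0.16 with adjusted p = 0.0561.

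Gpi1, which turns glucose 6-phosphate into fructose 6-phosphate, fell with AA in DM from 419, 441 and 425 CPM to 394, 393 and 372 (-0.15 ± 0.047, adjusted p = 0.0174), and in GM changed by -0.11 ± 0.046 (adjusted p = 0.0966). The DM call was lost without DM-PBS replicate 2 (adjusted p = 0.0979) and without DM-AA replicate 3 (adjusted p = 0.107). Pfkm, the muscle form of phosphofructokinase, was not called in DM (0.13 ± 0.068, adjusted p = 0.117), whereas Pfkl (-0.78 ± 0.053) and the platelet form Pfkp (-0.59 ± 0.056) fell. Pfkm thus went from 11.1% ± 0.10 of the summed phosphofructokinase RPKM in GM-PBS to 18.4% ± 0.73 in DM-PBS, and its libraries in the 2 groups did not overlap in this share. Tpi1, which interconverts the triose phosphates, fell in DM (-0.91 ± 0.046) and with AA changed by -0.07 ± 0.046 and -0.04 ± 0.047, without passing.

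**Figure D3:**
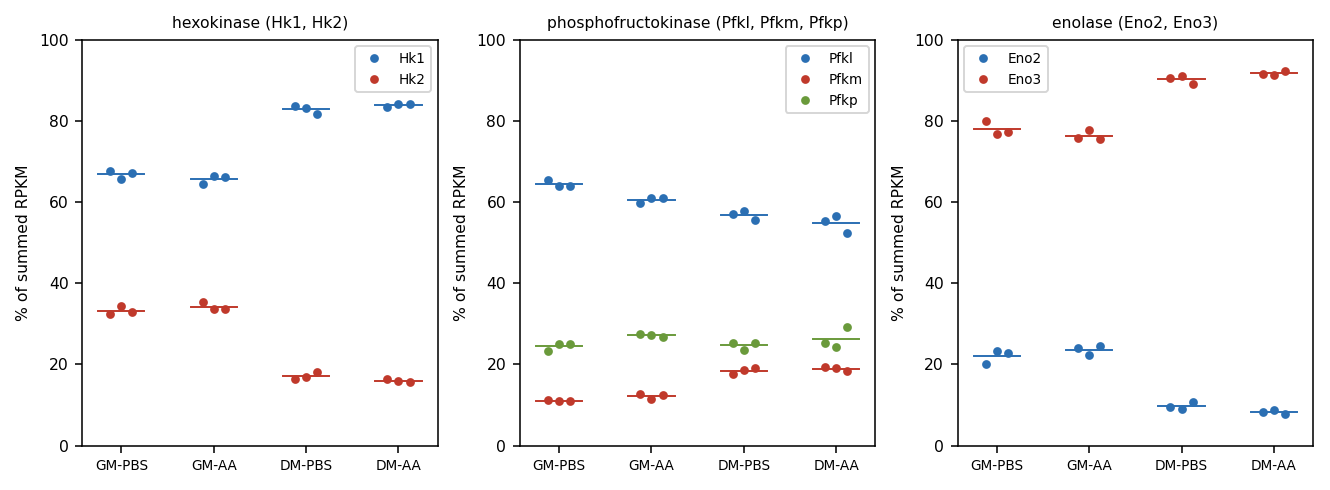
Share of each form in the summed RPKM of hexokinase, phosphofructokinase and the 2 countable enolases, in percent, by library; lines are means of 3. Hk2 drops from 33.2% to 17.2% and Eno2 from 22.1% to 9.74% between GM-PBS and DM-PBS, while Pfkm rises from 11.1% to 18.4%.

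In lower glycolysis, which yields ATP and pyruvate, none of the 5 genes in the table was called with AA in either medium, and 4 of the 5 fell in DM. At an unadjusted p under 0.05 these tests gave 1 gene in GM (Eno2) and 2 in DM (Eno2 and Eno3), and DESeq2 called 0. Log2 fold changes with AA lay between -0.15 and 0.13 in GM and between -0.17 and 0.10 in DM. Eno3, the muscle form of enolase, was not called lower in DM. It measured 287, 255 and 266 CPM in the GM-PBS libraries and 287, 282 and 293 in DM-PBS (0.09 ± 0.049, adjusted p = 0.109), and passed as higher without GM-PBS replicate 1 (0.14, adjusted p = 0.0204) and when libraries were scaled by the divisor of the RPKM (0.12, adjusted p = 0.0406). With AA in DM it measured 305, 296 and 323 CPM, all above DM-PBS (0.10 ± 0.049, adjusted p = 0.126), and was called higher after its library's trend with GC and length was taken out (0.16, adjusted p = 0.00524). Eno2, the neuronal form, fell in DM from 118, 127 and 129 to 49.1, 45.5 and 58.3 CPM (-1.29 ± 0.064, adjusted p = 4.44e-18). So the share of Eno3 in the summed RPKM of Eno2 and Eno3 went from 77.9% ± 1.76 to 90.3% ± 0.95. With AA, Eno2 moved by 0.13 ± 0.057 in GM and -0.17 ± 0.074 in DM, neither called, and the difference of -0.30 ± 0.093 narrowly missed (adjusted p = 0.0548). That difference passed without GM-AA replicate 2 (adjusted p = 0.0468) and without DM-PBS replicate 2 (adjusted p = 0.0177), when genes with few reads were kept (adjusted p = 0.0237) and after removal of the trend with GC and length (adjusted p = 0.0483). The GM change passed after that removal (0.17, adjusted p = 0.0189), and the DM change passed without DM-PBS replicate 2 (-0.24, adjusted p = 0.0253).

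Reads of several lower enzymes could be shared with copies of the gene elsewhere, and how the counting treated them is not given in the sources used here. Of the 50-base windows of its transcripts, Eno1, the general enolase, has 72.2% in other genes, Pgk1 (phosphoglycerate kinase) 68.0% and Pgam1 (phosphoglycerate mutase) 41.5%, and the count of Eno1 was low at 8.11 ± 0.54 RPKM in GM-PBS. The levels of these 3 and their DM changes of -0.59 ± 0.115, -0.85 ± 0.066 and -1.13 ± 0.074 are therefore uncertain. Pgam1 was also called lower with AA in GM without GM-AA replicate 1 (-0.21, adjusted p = 0.0196). Gapdh, which sits between Tpi1 and Pgk1 in the pathway, is listed at 0 reads in every library, and 74 other genes share at least 100 such windows with it. Pkm, with 34.4% of its windows elsewhere, measured 4958, 4596 and 4660 CPM in the GM-PBS libraries and 3310, 3303 and 3308 in DM-PBS (-0.52 ± 0.043, adjusted p = 3.41e-12), and changed with AA by -0.06 ± 0.043 in GM and -0.01 ± 0.043 in DM.

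**Figure D4:**
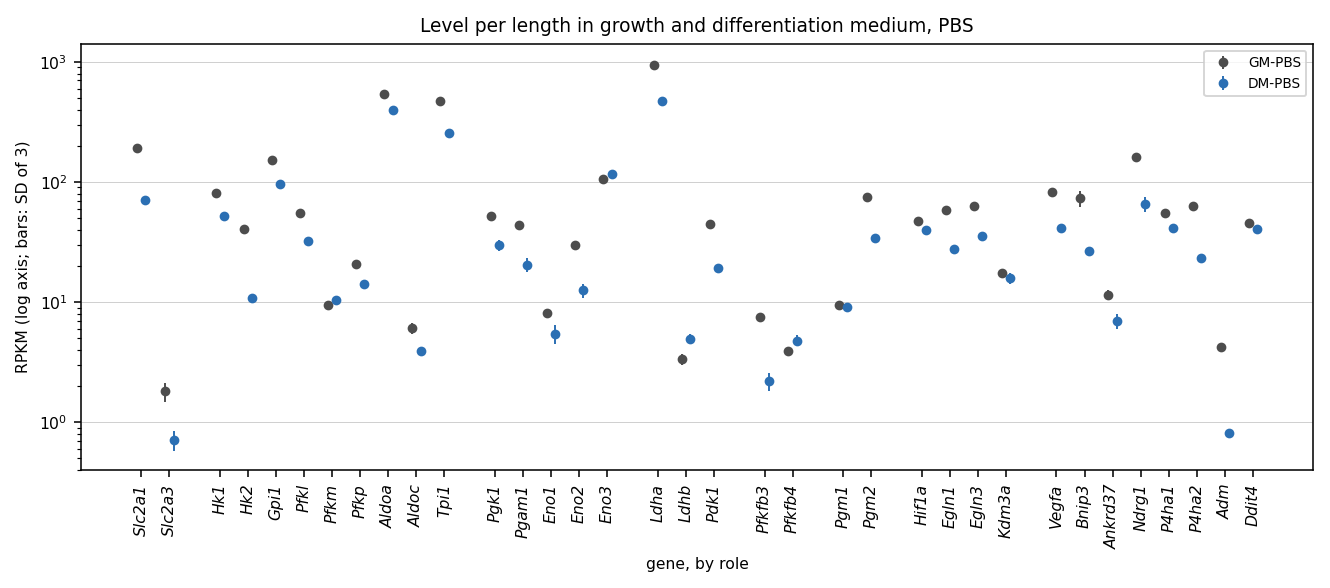
Level per length (RPKM, log axis, mean and SD of 3) of the 35 genes in GM-PBS and DM-PBS, ordered by role. Ldha is the highest at 948 RPKM in GM-PBS, Slc2a3 the lowest at 1.80, and Ldhb, Pfkfb4, Pfkm and Eno3 are the genes whose DM-PBS mean lies above GM-PBS.

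Lactate dehydrogenase showed opposite changes of its forms between media. Ldha, which favours the reduction of pyruvate to lactate, was the most abundant member per length (948 ± 27 RPKM in GM-PBS) and fell from 2962, 2802 and 2889 CPM to 1386, 1394 and 1435 in DM (-1.04 ± 0.045, adjusted p = 8.79e-20). Ldhb, the heart form, rose from 6.94, 6.0 and 7.34 to 8.96, 9.86 and 10.8 CPM (0.54 ± 0.147, adjusted p = 0.0025), and at 4.94 RPKM in DM-PBS stayed far below the 470 RPKM of Ldha. The groups did not overlap for either gene. With AA neither form was called: Ldha changed by -0.08 ± 0.044 and 0.04 ± 0.044, and Ldhb by 0.12 ± 0.156 and 0.26 ± 0.132. Ldha passed as lower in GM without GM-AA replicate 1 (adjusted p = 0.0384) and Ldhb as higher in DM without DM-AA replicate 1 (adjusted p = 0.0493). Other genes hold 16.6% of the windows of Ldha and 27.0% of those of Ldhb.

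Pdk1, a kinase that shuts pyruvate dehydrogenase and so keeps pyruvate out of the mitochondria, fell in all 3 comparisons. It measured 358, 379 and 355 CPM in the GM-PBS libraries, 316, 311 and 303 in GM-AA, 152, 147 and 157 in DM-PBS and 134, 129 and 131 in DM-AA. The 4 groups did not overlap. The log2 fold changes were -0.23 ± 0.044 with AA in GM (adjusted p = 0.000223), -0.21 ± 0.050 with AA in DM (adjusted p = 0.00135) and -1.26 ± 0.047 with DM (adjusted p = 1.88e-21), and all 3 calls held under every alternative tried and without any 1 library.

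Fructose 2,6-bisphosphate activates phosphofructokinase and is made and removed by the PFKFB enzymes, of which Pfkfb3 strongly favours synthesis. Pfkfb3 measured 57.7, 67.3 and 61.6 CPM in the GM-PBS libraries and 48.6, 50.9 and 50.2 in GM-AA, without overlap (-0.32 ± 0.072, adjusted p = 0.00157). In DM it was far lower, 18.0, 14.9 and 20.8 CPM with PBS (-1.79 ± 0.086, adjusted p = 1.77e-18), and 15.8, 15.8 and 16.9 with AA (-0.15 ± 0.109, adjusted p = 0.349). The 2 AA effects differed by 0.17 ± 0.131, which did not pass. Pfkfb4 rose in DM (0.25 ± 0.096, adjusted p = 0.0267), a call lost with DESeq2 (adjusted p = 0.0749), without the trend in GC and length (adjusted p = 0.0579), and without GM-PBS replicate 3 (adjusted p = 0.101), DM-PBS replicate 1 (adjusted p = 0.125) or DM-PBS replicate 3 (adjusted p = 0.100). The phosphoglucomutases link glycogen to glucose 6-phosphate. The gene listed as Pgm2 fell in GM (-0.17 ± 0.047, adjusted p = 0.00884), in DM (-0.21 ± 0.053, adjusted p = 0.00335) and with the medium (-1.15 ± 0.049), while that listed as Pgm1 was not called, at 0.01 ± 0.079, 0.05 ± 0.080 and -0.07 ± 0.080. The GM call of Pgm2 was lost without GM-AA replicate 3 (adjusted p = 0.0762), and RefSeq gives each of the 2 symbols as an older name of the other gene, so which enzyme a row counts is uncertain.

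Of the 4 genes of oxygen sensing and chromatin, Hif1a, the oxygen-regulated subunit of HIF-1, was called with AA in neither medium (0.05 ± 0.046 in GM, -0.08 ± 0.047 in DM) and fell modestly in DM (-0.29 ± 0.046, adjusted p = 3.37e-06). Its protein, which oxygen controls, was not measured. After removal of the trend with GC and length, Hif1a passed as lower with AA in DM (-0.15, adjusted p = 0.00585). Kdm3a, a histone demethylase induced by hypoxia, changed little: -0.10 ± 0.056 and -0.00 ± 0.057 with AA, neither called, and -0.17 ± 0.056 in DM (adjusted p = 0.0101), which was lost without DM-PBS replicate 3 (adjusted p = 0.131).

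Egln1 and Egln3 encode prolyl hydroxylases that mark HIF-1 alpha for destruction, and Egln1 fell with AA in both media while Egln3 rose in DM. Egln1 (PHD2) measured 315, 333 and 329 CPM in the GM-PBS libraries and 280, 290 and 278 in GM-AA (-0.20 ± 0.045, adjusted p = 0.0013), and 151, 152 and 148 in DM-PBS and 135, 141 and 127 in DM-AA (-0.16 ± 0.050, adjusted p = 0.0129). Its AA libraries were the lower ones in both media, and the DM call was lost without DM-AA replicate 3 (adjusted p = 0.105) and after removal of the trend with GC and length (-0.11, adjusted p = 0.096). Egln3 (PHD3) measured 263, 273 and 267 CPM in the GM-PBS libraries and 247, 253 and 247 in GM-AA (-0.11 ± 0.048, adjusted p = 0.118). In DM it measured 142, 138 and 158 with PBS and 183, 172 and 180 with AA, a rise of 22.5% (0.29 ± 0.051, adjusted p = 3.97e-05). The AA libraries thus lay below the PBS libraries in GM and above them in DM. The difference between the 2 effects was 0.40 ± 0.070 (adjusted p = 0.000341), where 2.58% of all tested genes were called higher and 2.67% lower in that difference, and 1 member was called in each direction. The difference passed under all 7 alternatives (adjusted p from 7.11e-06 to 0.000756) and without any 1 of the 12 libraries. In DM with PBS, Egln1 fell by 53.8% and Egln3 fell by 45.6%.

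**Figure D5:**
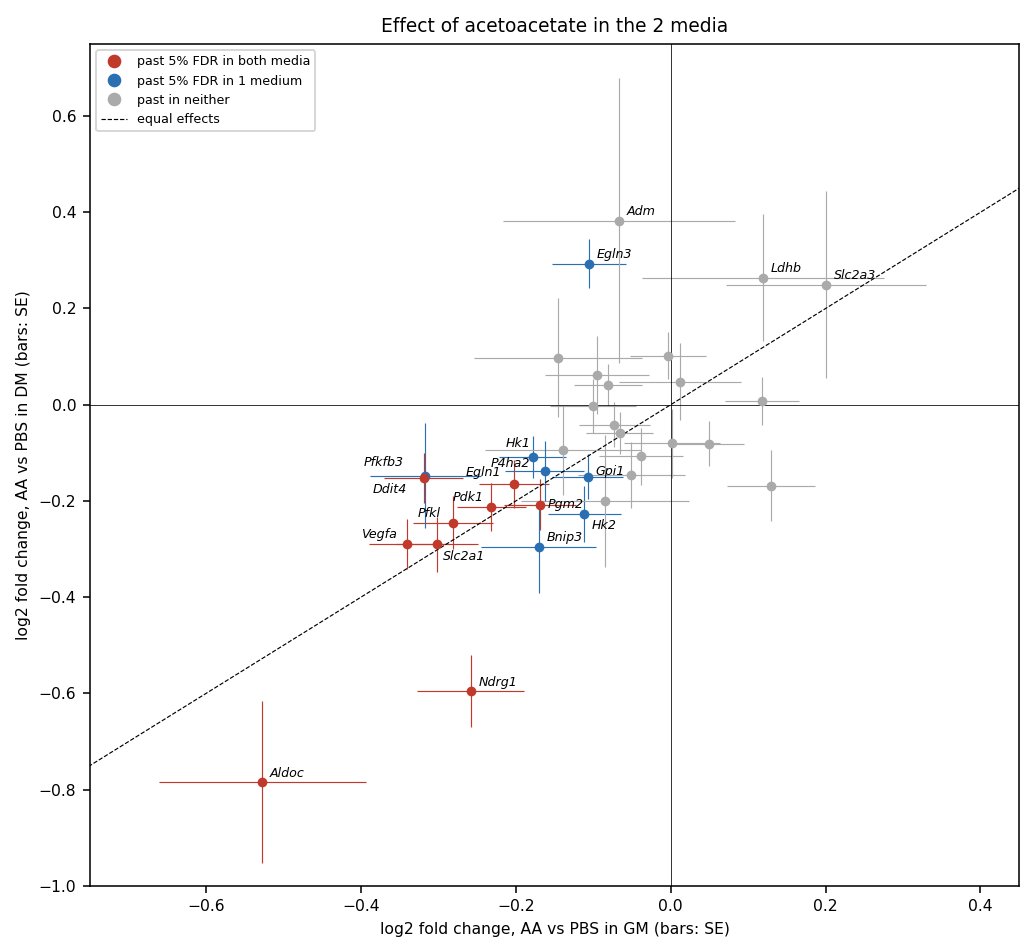
Log2 fold change with AA in GM (x axis) against that in DM (y axis) for the 35 genes, with SE bars; the dashed line marks equal effects. Egln3 lies at -0.11 and 0.29 and Ndrg1 at -0.26 and -0.60, the 2 members whose difference passed 5% FDR; Aldoc, at -0.53 and -0.79, has wide bars.

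Among the 8 effectors of the hypoxia response, AA lowered 4 in GM (Vegfa, Ndrg1, P4ha2 and Ddit4) and 4 in DM (Vegfa, Bnip3, Ndrg1 and Ddit4), and DM lowered all 8. Vegfa, a secreted factor that draws vessels, measured 493, 580 and 545 CPM in the GM-PBS libraries and 429, 417 and 431 in GM-AA, and 275, 273 and 261 in DM-PBS and 222, 229 and 211 in DM-AA. No AA library reached its PBS group. It fell by 21.0% in GM (-0.34 ± 0.050, adjusted p = 4.6e-06) and fell by 18.2% in DM (-0.29 ± 0.053, adjusted p = 7.26e-05), and DM with PBS lowered it (adjusted p = 9.18e-18), every DM library lying below every GM library.

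Ndrg1, a gene of growth arrest and stress induced by hypoxia, had the second largest fall with AA in DM. It measured 670, 772 and 755 CPM in the GM-PBS libraries and 665, 618 and 553 in GM-AA, where 1 AA library stood just under the lowest PBS library. In DM it measured 290, 257 and 336 with PBS and 211, 176 and 197 with AA, a wider gap. The log2 fold change was -0.26 ± 0.069 in GM (adjusted p = 0.00688) and -0.60 ± 0.075 in DM (adjusted p = 1.6e-07). In GM the call was lost with DESeq2 (adjusted p = 0.121) and without GM-AA replicate 3 (adjusted p = 0.0787). The difference of the 2 effects, -0.34 ± 0.102, barely passed (adjusted p = 0.0454) and was lost with the RPKM divisor (adjusted p = 0.051), DESeq2 (adjusted p = 0.299) or the replicate number as a block (adjusted p = 0.0609). It was also lost without GM-PBS replicate 1 or 3, GM-AA replicate 1 or 2, DM-PBS replicate 1 or 3, or DM-AA replicate 2 or 3 (adjusted p from 0.0641 to 0.189).

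Bnip3, which promotes removal of mitochondria, measured 172, 231 and 201 CPM in the GM-PBS libraries and 197, 156 and 184 in GM-AA, which overlap, and 68.7, 71.6 and 74.7 in DM-PBS and 53.7, 66.0 and 55.3 in DM-AA, which do not. It was called with AA in DM (-0.30 ± 0.095, adjusted p = 0.0185) and not in GM (-0.17 ± 0.075, adjusted p = 0.103), and the difference of -0.13 ± 0.12 did not pass. The DM call was lost with DESeq2 (adjusted p = 0.125) and without DM-PBS replicate 3 (adjusted p = 0.0707), DM-AA replicate 1 (adjusted p = 0.0918) or DM-AA replicate 3 (adjusted p = 0.0919), and a GM call appeared without GM-PBS replicate 1 (adjusted p = 0.00949) or GM-AA replicate 1 (adjusted p = 0.0241). Other genes hold 21.9% of its windows, and 22.3% of its exon bases lie opposite another gene's exons. Ddit4, an inhibitor of mTORC1 induced by stress, measured 126, 116 and 121 CPM in the GM-PBS libraries and 99.9, 93.6 and 98.0 in GM-AA (-0.32 ± 0.052, adjusted p = 2.31e-05). In DM it went from 107, 108 and 103 to 97.9, 98.0 and 90.7 CPM (-0.15 ± 0.053, adjusted p = 0.0296). This DM call was lost with DESeq2 (adjusted p = 0.0837), after removal of the trend with GC and length (-0.06, adjusted p = 0.371), and without DM-PBS replicate 1 (adjusted p = 0.0919), DM-PBS replicate 2 (adjusted p = 0.104) or DM-AA replicate 3 (adjusted p = 0.174).

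P4ha1 and P4ha2 encode subunits of collagen prolyl hydroxylases. P4ha2 fell with AA in GM from 218, 241 and 239 to 212, 213 and 198 CPM (-0.16 ± 0.051, adjusted p = 0.0215) and in DM changed by -0.14 ± 0.062 (adjusted p = 0.1). Its GM call was lost without GM-PBS replicate 2 (adjusted p = 0.101), GM-PBS replicate 3 (adjusted p = 0.0978) or GM-AA replicate 3 (adjusted p = 0.12), and a DM call appeared without DM-PBS replicate 2 (adjusted p = 0.0266). P4ha1 was at 0.12 ± 0.048 in GM (adjusted p = 0.0752; 0.0318 without GM-PBS replicate 2) and 0.01 ± 0.049 in DM. In DM with PBS, P4ha2 fell by 63.7% and P4ha1 fell by 25.4%. Adm, which encodes the vasodilator adrenomedullin, had the largest fall with the medium, from 8.53, 8.94 and 9.87 to 1.73, 1.60 and 1.88 CPM (-2.38 ± 0.214, adjusted p = 2.09e-11). With only 557 reads in all, its AA values of -0.07 ± 0.15 and 0.38 ± 0.296 did not pass. Ankrd37, a small ankyrin protein gene and HIF target, fell in DM (-0.74 ± 0.119, adjusted p = 2.52e-06) and was at -0.08 ± 0.108 and -0.20 ± 0.137 with AA. It had 1273 reads in all, and 26.4% of its exon bases lie opposite another gene's exons.

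Ranked by the fold change in DM with PBS, the largest falls were those of Adm, Hk2 (-1.94), Pfkfb3 (-1.79), Bnip3 (-1.49), P4ha2 (-1.46) and Slc2a1 (-1.46), and 14 members fell by at least 2-fold. At the other end, Ddit4 (-0.19), Kdm3a (-0.17) and Hif1a (-0.29) fell least among the 30. In cells given AA, the DM mean was below the GM mean for 31 of the 35 genes, with a median log2 ratio of -0.88; this shares no library with the PBS comparison and was not tested.

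The change with AA varied with the GC content of the gene. Across tested genes the log2 fold change with AA had a Spearman correlation with gene GC content of -0.274 in GM and -0.266 in DM (12143 genes of these libraries, given with no p), and 0.0375 for the medium. The members' median GC content was 51.9% against 49.7% over tested genes, and it was 52.0% for the 12 lower with AA in GM and 51.5% for the 23 others. After removal of each library's trend with GC and length, all 12 GM calls were kept, with Eno2 (higher, adjusted p = 0.0189) and Bnip3 (lower, adjusted p = 0.00718) added. In DM, 10 of the 12 lower calls were kept, Egln1 and Ddit4 being lost. Eno3 (higher, adjusted p = 0.00524) and Hif1a (lower, adjusted p = 0.00585) were added there. GM-PBS replicate 1 stood apart from the others of its group in this trend (0.211 against 0.00528 and 0.0307), and no GM call of a member was lost without it.

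Other genes of the HIF pathway were also tested, from a list of 10, of which 9 were expressed enough. AA lowered 4 and raised 1 in each medium, which is 44.4% and 11.1% of the 9. Over all tested genes, 11.0% were lower and 9.76% higher in GM, and 13.8% and 12.6% in DM. The share higher thus lay near the background. The gene raised was Arnt in GM (adjusted p = 0.026) and Hif1an in DM (adjusted p = 0.0321). Both calls were lost with DESeq2 (adjusted p = 0.0746 and 0.0708), and each was lost without any 1 of 4 libraries. Egln2 was lowered in both media, and its DM call (adjusted p = 0.0258) was lost with DESeq2 (adjusted p = 0.0727) and after removal of the trend with GC and length (adjusted p = 0.365). Cited2, which competes with HIF-1 alpha for the coactivators p300 and CBP, had the largest fall among those called, from 401, 377 and 401 CPM to 282, 254 and 289 in GM (-0.52 ± 0.054, adjusted p = 1.09e-08) and from a range of 355 to 422 CPM to 228, 223 and 219 in DM (-0.80 ± 0.055, adjusted p = 3.73e-13). Its AA and PBS libraries did not overlap in either medium, and between DM and GM in PBS it was at -0.01 ± 0.054, not called. Crebbp, the coactivator CBP, was at -0.22 ± 0.060 in GM (adjusted p = 0.00844; 0.0791 without GM-PBS replicate 1) and -0.34 ± 0.062 in DM (adjusted p = 6.13e-05). With the medium, 2 of the 9 rose and 1 fell, the last being Vhl (-0.35 ± 0.065, adjusted p = 2.7e-05), the ligase subunit that binds hydroxylated HIF alpha. These shares, 22.2% higher and 11.1% lower, lay under the 27.0% and 27.4% of all tested genes.

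Of 34 further hypoxia-responsive genes, 31 were tested, and DM lowered 26 and raised 4. That was 83.9% lower and 12.9% higher, against 27.4% and 27.0% of all tested genes. The smallest p-values were those of Ak4, a mitochondrial adenylate kinase (-1.68 ± 0.061), Fam162a (-1.38 ± 0.056), Slc16a3, the lactate exporter MCT4 (-1.20 ± 0.050) and Ero1l, an oxidase of the endoplasmic reticulum (-1.73 ± 0.080). With AA, 11 fell and 2 rose in GM, and 7 fell and 5 rose in DM. In GM that was 35.5% lower and 6.45% higher, against 11.0% and 9.76% of all tested genes. In DM it was 22.6% lower and 16.1% higher, against 13.8% and 12.6%, so the share higher lay near the background. Lox, which crosslinks collagen, fell in both (-0.51 ± 0.049 and -0.76 ± 0.050), as did Ccng2 (-0.49 ± 0.056 and -0.39 ± 0.055), and Tfrc, the transferrin receptor, rose in both (0.33 ± 0.043 and 0.33 ± 0.045). Angptl4, an inhibitor of lipoprotein lipase that PPARs also induce, fell with AA in GM (-0.53 ± 0.066, adjusted p = 2.52e-07) and was at 0.06 ± 0.070 in DM. The median log2 fold change of the tested genes of that list was -0.09, -0.06 and -0.69 with AA in GM, AA in DM and the medium.

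Of 20 further genes of glucose uptake and glycolysis, mostly forms of other tissues, 11 were tested. AA raised 2 and lowered 2 in GM and raised 1 and lowered 2 in DM, 1 or 2 genes in a direction, so that these shares (9.09% to 18.2%) lie near those of all tested genes. Pfkfb2, the heart form of the fructose 2,6-bisphosphate enzyme, rose in GM (0.30 ± 0.067, adjusted p = 0.00108), against the fall of Pfkfb3, and Pdk2 fell in DM (-0.52 ± 0.109, adjusted p = 0.000426). Pdk2 fell in GM too (-0.43, adjusted p = 0.0238), a call lost with DESeq2 (adjusted p = 0.078) and after removal of the trend with GC and length (adjusted p = 0.0598). That GM call was also lost without GM-PBS replicate 2 or 3, or GM-AA replicate 2 or 3 (adjusted p from 0.0531 to 0.104). Adpgk rose in GM (0.23, adjusted p = 0.00457) and in DM (0.24, adjusted p = 0.0086). Its DM call was lost without DM-AA replicate 2 (adjusted p = 0.0502). With the medium, 3 rose and 2 fell, shares of 27.3% and 18.2% against 27.0% and 27.4% of all tested genes. Pdk2 (0.91 ± 0.115, adjusted p = 3.02e-08) and Pdk4 (0.65 ± 0.075, adjusted p = 5.36e-09), kinases of pyruvate dehydrogenase like Pdk1, rose in DM where Pdk1 fell.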

How the data were processed

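RNA of 12 libraries of C2C12 myoblasts was analysed, 3 per group, with groups taken from the sample titles. The submitters' processing notes name BWA 0.5.9-r16 and the genome build mm9. The counting rule, its treatment of reads matching several places, the strand setting and the annotation were not stated in the sources used here. The authors deposited counts of reads and RPKM for each of 23446 genes, per the file headers. The RPKM equal count divided by gene length and by 1 number per library, within 0.0005%, and that number exceeds the summed counts, which make up 63.2% to 64.9% of it.

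Counts were filtered (filterByExpr), scaled by TMM and fitted with edgeR 4.0.16 (glmQLFit, glmQLFTest, two-sided, R 4.3.3) as 4 group means over 12 libraries, so the groups share 1 estimate of spread (8 residual degrees of freedom, biological coefficient of variation 4.08%). P-values were adjusted by Benjamini-Hochberg over 12230 genes at 5% FDR. An SE is the log2 fold change divided by the square root of its F. CPM are TMM-scaled, and RPKM serve to compare genes. The comparison of media shares PBS libraries with both AA comparisons. Replicates differed by more than counting noise (chi-square divided by its degrees of freedom 1.45 to 2.89). Same-numbered libraries did not deviate together (correlations from -0.028 to 0.024), so no pairing was used.

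The members, lists, tests and alternatives were chosen with earlier results of these data known. Every member is described. Apart from Gapdh and the markers of cell types, named genes of further lists were drawn from those past 5% FDR with the smallest p, up to 4 per comparison. Not all of these are named (Pck2, Mxi1 and Tkt are among those left out), and a gene drawn for 1 comparison may be given in others. The result of 1 gene of these lists is not reported here, and that gene stays in its list's counts. The isoform shares were added after values were seen. Alternatives were RLE size factors, the RPKM divisor, no low-count filter, DESeq2 1.42.0, only the compared groups, a replicate block, removal of GC and length trends (GENCODE M21 transcripts, 12143 genes), and leaving out each library. Windows of 50 bases were compared with all other genes of GENCODE M21. Scripts were tested on simulated data. Figures used matplotlib 3.10.9.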

Additional observations from a re-analysis of the deposited data

Results flagged for a closer look

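Of the genes reported here, 6 had an effect of AA that differed between the media by the test of the difference itself (DM minus GM, edgeR's quasi-likelihood test, adjusted p over all tested genes). Over all tested genes, 2.58% were called higher and 2.67% lower in that difference. Members were at 2.86% (1 of 35) in each direction, near that background. The shares were 9.68% higher and 6.45% lower for the 31 further hypoxia-responsive genes, and 0% and 11.1% for the 9 HIF-pathway genes. Among the members, Egln3 differed by 0.40 ± 0.070 on the log2 scale (adjusted p = 0.000341) and Ndrg1 by -0.34 ± 0.102 (adjusted p = 0.0454). The Egln3 effects had opposite signs, -0.11 in GM and 0.29 in DM, and its call did not depend on any 1 library. The Ndrg1 effects had the same sign, -0.26 and -0.60, and its call was lost without any 1 of 8 libraries, GM-PBS replicates 1 and 3, GM-AA replicates 1 and 2, DM-PBS replicates 1 and 3 and DM-AA replicates 2 and 3 (adjusted p from 0.0641 to 0.189).

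Among the further HIF-pathway and hypoxia-responsive genes, Angptl4 differed by 0.58 (adjusted p = 0.000157; -0.53 in GM and 0.06 in DM) and Bhlhe41, a repressor of the circadian clock, by -0.36 (adjusted p = 0.00362; 0.23 in GM and -0.13 in DM), and neither call depended on 1 library. Cited2 differed by -0.29 (adjusted p = 0.0211), which was lost without GM-PBS replicate 2, GM-AA replicate 3, DM-PBS replicate 2 or DM-AA replicate 3 (adjusted p from 0.063 to 0.105). Lox differed by -0.25 (adjusted p = 0.0255), lost without GM-PBS replicate 1, GM-AA replicate 2 or 3, DM-PBS replicate 1, or DM-AA replicate 2 or 3 (adjusted p from 0.0523 to 0.115).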

How the results depend on the processing

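No member value that passed the test in any of the fits changed sign under an alternative, and of the member values recomputed, 2071 kept their side of the threshold, 40 lost a call and 24 gained one. The count of members higher with AA in GM went from 0 to 1 with the GC and length trend removed, with or without the replicate block, and ranged from 0 to 1 when 1 library was left out. Members higher with AA in DM went from 1 to 2 with that trend removed, with or without the block, and ranged from 1 to 2. Members higher in DM with PBS went from 2 to 1 with DESeq2 and with the trend removed, with or without the block. The RPKM divisor added Eno3 to them, and leaving out 1 library gave a range from 1 to 3. Members lower in the difference of AA effects went from 1 to 0 with the RPKM divisor, DESeq2 or the replicate block, and to 2 with no low-count filter or the trend removed, with or without the block, and ranged from 0 to 2. Left-out libraries moved the lower counts between 9 and 15 (AA in GM), 8 and 12 (AA in DM) and 29 and 30 (medium). Under the other alternatives, the lower list for AA in GM lost Ndrg1 with DESeq2. It gained Bnip3 with no low-count filter or the trend removed. The list for AA in DM lost Bnip3 and Ddit4 with DESeq2. With the trend removed it lost Egln1 and Ddit4 and gained Hif1a. Apart from the difference for Ndrg1, the replicate block alone changed no member call. The difference of AA effects was not refitted with only the compared groups, since it uses all 4. Depth limits Adm (557 reads), Slc2a3 (859) and Ldhb (907).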

Other observations

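Side branches of glycolysis were tested from lists of 22 genes of glycogen and gluconeogenesis (16 tested) and 12 of the pentose phosphate, hexosamine and serine branches (11 tested). Gys1, muscle glycogen synthase, fell with AA in GM (-0.29 ± 0.051, adjusted p = 5.23e-05 by edgeR's quasi-likelihood test) and in DM (-0.23 ± 0.058, adjusted p = 0.00327) and with the medium (-1.22 ± 0.053). In that list AA raised 2 and lowered 2 in GM and lowered 3 in DM, and DM lowered 6, among them the glycogen genes Ugp2 (-0.85 ± 0.062), Ppp1r3b (-1.47 ± 0.117) and Gbe1 (-1.23 ± 0.102), and raised 5. These counts are 12.5% and 12.5% of the list with AA in GM against 9.76% higher and 11.0% lower over all tested genes, 18.8% lower with AA in DM against 13.8%, and 31.2% higher and 37.5% lower with the medium against 27.0% and 27.4%, so they lie near the background.

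Pgd, the second dehydrogenase of the pentose phosphate pathway, fell with AA in GM (-0.31 ± 0.057, adjusted p = 0.000131) and in DM (-0.38 ± 0.057, adjusted p = 3.86e-06), and Pgls, the step before it, fell in GM (-0.43 ± 0.072, adjusted p = 4.54e-05). Pgls was also called lower with AA in DM. That call was lost with DESeq2 (adjusted p = 0.0777) and after removal of the trend with GC and length (adjusted p = 0.108). It was also lost without DM-PBS replicate 2 or 3, or DM-AA replicate 1 or 3 (adjusted p from 0.121 to 0.15). Psat1, of serine synthesis, rose with AA in DM (0.22 ± 0.051, adjusted p = 0.0011) and in GM (0.16, adjusted p = 0.016). The GM call was lost without GM-PBS replicate 3 (adjusted p = 0.0634) or GM-AA replicate 1 (adjusted p = 0.112). Psat1 fell with the medium (-0.63 ± 0.050), as did Phgdh (-0.75 ± 0.065) and Psph (-0.70 ± 0.11). Of the 11, AA raised 1 and lowered 3 in GM and raised 3 and lowered 5 in DM, and the medium lowered 5. The shares were 9.09% higher and 27.3% lower with AA in GM, 27.3% higher and 45.5% lower with AA in DM, and 45.5% lower with the medium, and the share higher in GM lies near the 9.76% of all tested genes.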
